A study of Mus musculus with 18 samples.

Results

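Contacts across *HoxD* were compared between ESCs that had been differentiated with retinoic acid (RA) and ESCs that lacked *Eed*, each relative to its own undifferentiated or wild-type state. The question is whether a signal and a mutation, both of which open the locus, lose the same contacts. The libraries were chosen by their titles and gave 8 of the 18 libraries of the series: 2 from undifferentiated OS25 mESCs, 2 from OS25 cells differentiated for 3 d (D3 cells), 2 from wild-type ESCs and 2 from *Eed*-/- ESCs. In all of them 5C interactions were measured over 133 EcoRI fragments with 4422 pairs of 1 forward and 1 reverse primer. The design covers 666 kb of chromosome 2 (mm9), between 74241352 and 74907778. Of these pairs, 4251 lay at least 10 kb apart and were used, and the 171 closer ones were left out.

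OS25 is a mouse ESC line. For D3 cells it was plated at low density without LIF, the cytokine that keeps ESCs undifferentiated, and received 5 µM RA for the last 2 d. Labels of the undifferentiated OS25 libraries repeat the differentiation text, and their titles decided the group. Wild-type cells are the line WTF18. The methods name 2 clones of *Eed*-/- cells, and libraries were not assigned to them. No source used here says that WTF18 is the parent line of the *Eed*-/- cells, so cell line and mutation cannot be told apart in that comparison. D3 and *Eed*-/- cells also differ in cell line, so in a direct comparison of these states line, treatment and mutation cannot be told apart. Per the labels ESCs were grown on embryonic fibroblasts, and per the methods these were removed before 5C. The labels do not say whether replicate libraries came from separate cultures, and their spread may be partly technical.

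*Hoxd* genes encode homeodomain transcription factors that give positions along the trunk and limbs their identity, and they are kept silent in ESCs by Polycomb complexes. EED is a core subunit of Polycomb repressive complex 2 (PRC2), which trimethylates Lys27 of histone H3. RA acts through nuclear receptors and activates *Hox* genes, beginning at the 3′ end of the clusters. In 5C, crosslinked DNA is digested with EcoRI, neighbouring ends are ligated, and a junction is copied by a pair of primers that anneal beside the cut sites, so that the number of reads measures how often a pair of fragments was joined.

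The frequency of a contact is the number of its reads divided by all reads of the run and multiplied by 1000. Totals ran from 608016 to 1086406 reads, at which 3 reads correspond to 0.00276 to 0.00493 reads per 1000. Pairs without a read made up 36.3% to 62.7% of the pairs in these libraries. Such limits cover counting error only, since 5C reads are PCR copies. Pairs under 10 kb apart took 26.5% to 50.6% of the reads, with the highest share in the first *Eed*-/- library. Because every frequency is a share of the run, a fall in one place raises other frequencies.

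Fragments were grouped into contiguous blocks bounded by genes, and fragments that carry no gene joined the block they lie in. *Evx2*, a homeobox gene at the 5′ end of the cluster, was given 3 fragments (chromosome 2, 74483052 to 74505529). Of these, 1 overlaps the gene, and values of the *Evx2* block cover all of them. *Hoxd13* to *Hoxd8*, called 5′ *Hoxd* here, were on 9 fragments (74505530 to 74548285), and *Hoxd4*, *Hoxd3* and *Hoxd1*, called 3′ *Hoxd*, on 11 (74548286 to 74604594). Together these 23 fragments formed a stretch of 121.5 kb from *Evx2* to *Hoxd1*, called *Evx2*–*HoxD* here, with 105 pairs. The 5′ flank with *Lnp* held 40 fragments and the 3′ flank with *Mtx2* held 70. No fragment of the design overlapped *Hoxd10*, which lies in a gap from 74524318 to 74537328, so nothing was measured at that gene.

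Fragments of *Evx2* and of *Hoxd* genes along the cluster, whose contacts are described below, are shown by the genomic sequence at one of their ends, where a 5C primer can anneal, with the EcoRI site in capitals. They were read from the mm9 genome on the plus strand, and a short fragment in an intron of *Hoxd3* that is among the strongest partners of *Evx2* is given whole.
Evx2 fragment, between genes, chr2:74483049-74483078: GAATTCaataaaatttgaagggttttattg
Hoxd13 fragment, between genes, chr2:74505527-74505556: GAATTCtaagtctctgatgctgccccaaga
Hoxd11 fragment, between genes, chr2:74516249-74516278: GAATTCtgcctttggagcccagagttcagt
Hoxd9 fragment, coding exon of Hoxd9, chr2:74537326-74537355: GAATTCctcttcaacatgtacctcacccgg
Hoxd3 fragment, intron, chr2:74572990-74573019: GAATTCcctatcaagtttgggatctgggtc
Hoxd1 fragment, intron of 6720416L17Rik, chr2:74598976-74599005: GAATTCaggcatggaatgaaatgaccagag
Short Hoxd3 fragment, whole, chr2:74552567-74552742: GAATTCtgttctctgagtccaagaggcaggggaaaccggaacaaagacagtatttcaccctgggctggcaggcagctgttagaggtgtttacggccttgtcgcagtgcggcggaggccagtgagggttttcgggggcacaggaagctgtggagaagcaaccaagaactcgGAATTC
The fragments of the cluster were richer in G and C than their surroundings. Median GC content was 50.7% for 5′ *Hoxd* and 49.9% for 3′ *Hoxd*, against 41.7% and 41.9% for the 5′ and 3′ flanks, and CpG dinucleotides numbered 26.8 and 29.6 per kb against 6.80 and 9.39.

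Contacts inside *Evx2*–*HoxD* were less frequent in both opened states than in their parent states. The mean over the 105 pairs was 1.08 and 1.75 reads per 1000 in undifferentiated OS25 libraries and 0.649 and 0.717 in D3 libraries. In wild-type libraries it was 1.27 and 1.47, and in *Eed*-/- libraries 0.365 and 0.468. No opened library reached its parent libraries, and both *Eed*-/- libraries lay below both D3 libraries. D3 cells kept 48.2% of the parent mean and *Eed*-/- cells 30.4%.

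The test was limma on log2 of each mean plus 0.02, with one estimate of the spread from all 14 ESC libraries of the series, since each of these groups holds 2. An exact permutation test of 2 against 2 libraries cannot go below p = 0.333. P-values of 22 readouts in 5 comparisons, 110 in all, were adjusted together by the Benjamini-Hochberg method at 0.05. The readouts share fragment pairs and are not independent. For contacts inside *Evx2*–*HoxD* the Eed change was -1.68 (standard error 0.34, limma adjusted p = 0.00474). The RA change was -0.99 (standard error 0.34, limma adjusted p = 0.0693) and did not pass the threshold. The difference of these changes, tested as an interaction, was 0.68 with a 95% interval from -0.34 to 1.71 (limma adjusted p = 0.533). Without undifferentiated replicate 1 the RA change passed the threshold (-1.33, limma adjusted p = 0.0275), whereas leaving out undifferentiated replicate 2 gave -0.65 (limma adjusted p = 0.392).

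The parent states were compared too. Undifferentiated OS25 and wild-type means inside *Evx2*–*HoxD* overlapped, with a log2 difference of 0.01 and a 95% interval from -0.71 to 0.73 (limma adjusted p = 0.976). None of the 22 readouts differed between the parent states at the threshold by limma, and 0 did at an unadjusted p under 0.05. D3 and *Eed*-/- cells differed inside *Evx2*–*HoxD* by 0.70 on the log2 scale, with D3 higher (95% interval -0.03 to 1.42, limma adjusted p = 0.266).

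**Figure D1:**
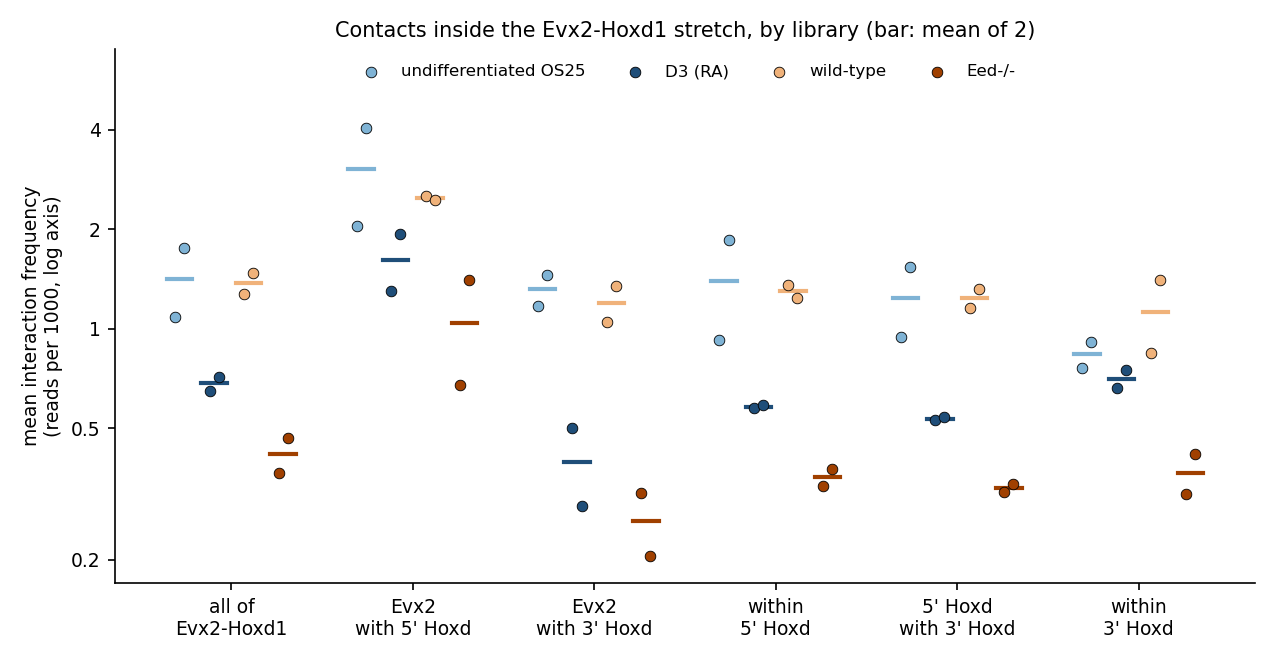
Mean interaction frequency in reads per 1000 (log axis) for all pairs of the *Evx2*–*HoxD* stretch and for its 5 blocks, with 1 point per library and a bar at the mean of 2. D3 points within 3′ *Hoxd* lie at 0.664 and 0.750, close below the undifferentiated ones at 0.761 and 0.915, whereas in the other blocks they lie further below.

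Long contacts that run across the cluster were lost in both states. The block of *Evx2*, which also encodes a homeodomain protein, contacted 3′ *Hoxd* at 1.17 and 1.46 reads per 1000 in undifferentiated libraries. In D3 libraries it did so at 0.503 and 0.290. The corresponding means were 1.05 and 1.35 in wild-type and 0.319 and 0.206 in *Eed*-/- libraries. No D3 or *Eed*-/- library reached its parents over these 16 pairs. With RA the change was -1.72 (standard error 0.40, limma adjusted p = 0.00898) and the Eed change -2.13 (standard error 0.40, limma adjusted p = 0.00418). Their difference was 0.40 with a 95% interval from -0.80 to 1.61. The RA change lost its call without undifferentiated replicate 2 (-1.57, limma adjusted p = 0.0751) and without D3 replicate 2 (-1.35, limma adjusted p = 0.120).

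Contacts between 5′ and 3′ *Hoxd* fell as well. Over 47 pairs the means were 0.946 and 1.53 in undifferentiated, 0.529 and 0.539 in D3, 1.15 and 1.32 in wild-type and 0.321 and 0.340 in *Eed*-/- libraries. RA gave a change of -1.14 (standard error 0.32, limma adjusted p = 0.0263) and the Eed change -1.84 (standard error 0.32, limma adjusted p = 0.00418), with a difference of 0.70 (95% interval -0.27 to 1.66, limma adjusted p = 0.533). The RA change did not pass the threshold without undifferentiated replicate 2 (-0.80, limma adjusted p = 0.208), without D3 replicate 1 (-1.13, limma adjusted p = 0.129) or without D3 replicate 2 (-1.16, limma adjusted p = 0.122).

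Windows set by eye on the *Hoxd13* and *Hoxd3* FISH probes gave changes of nearly equal size. Their mean frequency was 0.641 and 1.01 in undifferentiated, 0.227 and 0.218 in D3, 0.690 and 0.733 in wild-type and 0.139 and 0.259 in *Eed*-/- libraries. For RA the change came to -1.77 (standard error 0.40, limma adjusted p = 0.00826) and the Eed change -1.80 (standard error 0.40, limma adjusted p = 0.00826). The difference was 0.03, and its 95% interval from -1.18 to 1.24 does not show that the changes are equal. The RA change did not pass the threshold without undifferentiated replicate 2 (-1.45, limma adjusted p = 0.0778), nor the Eed change without *Eed*-/- replicate 1 (-1.39, limma adjusted p = 0.0972). With primers scaled to equal means, which also removes part of any signal shared by neighbouring fragments, they were -1.22 and -0.52, and neither passed it (limma adjusted p = 0.0733 and 0.652).

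At the 5′ end, values were lower in both states and fewer passed the test. Contacts within 5′ *Hoxd*, the genes that act in the limb and the posterior body, had means of 0.924 and 1.86 in undifferentiated, 0.575 and 0.588 in D3, 1.36 and 1.24 in wild-type and 0.335 and 0.376 in *Eed*-/- libraries. The Eed change was -1.81 (standard error 0.39, limma adjusted p = 0.00715) and the RA change -1.15 (standard error 0.39, limma adjusted p = 0.0693). The Eed change was -0.44 (limma adjusted p = 0.214) with primers scaled to equal means. *Evx2* with 5′ *Hoxd* was the most frequent block of the stretch in all 8 libraries, at 2.05 and 4.04, 1.30 and 1.94, 2.52 and 2.46, and 0.675 and 1.40 in the same order of groups. Its changes were -0.85 and -1.33 (limma adjusted p = 0.366 and 0.0743). Without undifferentiated replicate 1 the RA change within 5′ *Hoxd* passed the threshold (-1.64, limma adjusted p = 0.0133), as did the Eed change of *Evx2* with 5′ *Hoxd* without *Eed*-/- replicate 2 (-1.85, limma adjusted p = 0.0391).

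Contacts within 3′ *Hoxd*, among *Hoxd4*, *Hoxd3* and *Hoxd1*, set the 2 states apart the most among the blocks of the stretch. Over 19 pairs the means were 0.761 and 0.915 in undifferentiated and 0.664 and 0.750 in D3 libraries. Wild-type libraries had 0.842 and 1.40, and *Eed*-/- libraries 0.316 and 0.418. D3 libraries lay close below their parents, at 84.4% of the parent mean, whereas *Eed*-/- libraries were at 32.7%. The RA change was -0.24 with a 95% interval from -0.88 to 0.41 (limma adjusted p = 0.819), and the Eed change was -1.53 (standard error 0.30, limma adjusted p = 0.00474).

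The difference of the changes within 3′ *Hoxd* was 1.29 (standard error 0.42, unadjusted p = 0.00879, limma adjusted p = 0.0645) and did not pass the threshold after adjustment. It passed without the strongest pair of each region (1.34, limma adjusted p = 0.0271) and with the mean of log2 values per pair (1.87, limma adjusted p = 0.00456). The difference was 1.66 without wild-type replicate 1 and 0.93 without wild-type replicate 2. It was 0.31 (limma adjusted p = 0.659) with primers scaled to equal means and 0.45 (limma adjusted p = 0.657) with pairs under 10 kb included. The Eed change in this block was -0.56 (limma adjusted p = 0.334) with those close pairs and -1.17 (limma adjusted p = 0.0508) without wild-type replicate 2. D3 exceeded *Eed*-/- cells here by 0.92 (standard error 0.30, limma adjusted p = 0.0645), which was 0.09 (limma adjusted p = 0.900) with the close pairs included and 1.16 (limma adjusted p = 0.0186) with a minimum distance of 20 kb.

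**Figure D2:**
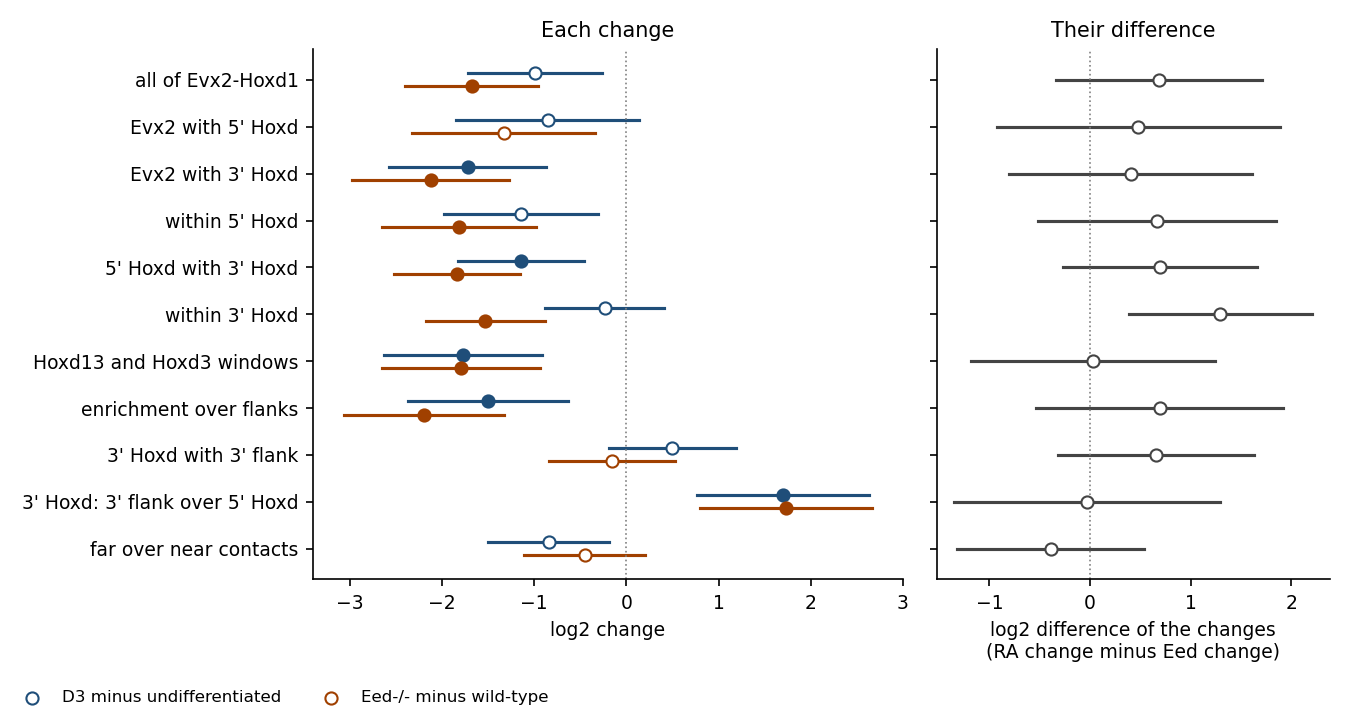
Log2 changes from parent to opened state (left) and their difference (right) for 11 readouts, as points with 95% intervals from limma, filled where the adjusted p was below 0.05. Blue stands for D3 minus undifferentiated and brown for *Eed*-/- minus wild-type, and no difference on the right is filled, the one within 3′ *Hoxd* being 1.29.

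Of the 22 readouts, 5 passed the threshold for RA (22.7%; 1 higher and 4 lower) and 8 for Eed loss (36.4%; 1 higher and 7 lower). For the difference of the changes 0 of 22 passed by limma, and 1 had an unadjusted p under 0.05, contacts within 3′ *Hoxd*. Between D3 and *Eed*-/- cells 0 passed and 2 had an unadjusted p under 0.05. With the mean of log2 values per pair in place of the mean, 6 were higher in D3 cells, among them all of *Evx2*–*HoxD* (1.12, limma adjusted p = 0.0166), contacts within 3′ *Hoxd* (1.87, limma adjusted p = 2.25e-05) and those of 3′ *Hoxd* with the 3′ flank (1.16, limma adjusted p = 0.0137). Pairs without a read weigh more in that mean. They made up 36.3% and 47.6% of pairs in D3 and 62.7% and 60.3% in *Eed*-/- libraries. The parent states differed in the same direction, at 43.1% and 49.4% in undifferentiated and 59.2% and 59.8% in wild-type libraries. Over 21 alternatives the D3 excess inside *Evx2*–*HoxD* ranged from 0.09 to 1.12, and the difference of the changes there from 0.02 to 1.03. The RA calls rest on few libraries. Leaving out 1 library at a time gave 0 to 6 lower calls for RA, with 0 without undifferentiated replicate 2, 2 without D3 replicate 1 and 1 without D3 replicate 2, and 6 to 8 for Eed loss.

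The enrichment of *Evx2*–*HoxD* over its flanks fell in both states. For each of 5 distance classes the mean inside the stretch was divided by that of flank pairs, and the log2 ratios were averaged, so the depth of a library does not enter it. Values were 2.48 and 3.61 in undifferentiated, 1.41 and 1.67 in D3, 3.11 and 3.21 in wild-type and 1.03 and 0.90 in *Eed*-/- libraries. The stretch stayed above its flanks in all 4 opened libraries. Enrichment changed by -1.51 with RA (standard error 0.40, limma adjusted p = 0.0216) and by -2.20 with Eed loss (standard error 0.40, limma adjusted p = 0.00418), and the difference was 0.69 (95% interval -0.54 to 1.92). The RA change did not pass the threshold without undifferentiated replicate 2 (-0.94, limma adjusted p = 0.208), without D3 replicate 1 (-1.37, limma adjusted p = 0.129) or without D3 replicate 2 (-1.64, limma adjusted p = 0.0688). With primers scaled to equal means the Eed change was -0.70 (limma adjusted p = 0.102).

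Pair by pair, most contacts of the stretch were lower in both states. A pair was counted as lower where both libraries of the opened state lay below both of the parent state. Of the 105 pairs, 67 (63.8%) were lower with RA and 74 (70.5%) with Eed loss, where 9.15% and 10.1% of all 4251 pairs were. Among 63 pairs outside the stretch whose mean exceeded 0.5 reads per 1000, 14.3% and 17.5% were, and 0 were lower in both. The lists shared 54 pairs, which is 80.6% of the RA list and 73.0% of the Eed list, or 51.4% of the stretch against 2.38% of all pairs. Since most pairs of the stretch were lower in each state, lists without any relation would also share many. The 80.6% stands beside 70.5% of the whole stretch lower with Eed loss, and the 73.0% beside 63.8% lower with RA. By this count 13 pairs were lower with RA alone, 20 with Eed loss alone and 18 with neither.

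The shared losses were spread over the stretch, and so were pairs lower with Eed loss alone, which were most numerous within 3′ *Hoxd*. Of 47 pairs between 5′ and 3′ *Hoxd*, 27 were lower in both states. Among the 16 pairs of *Evx2* with 3′ *Hoxd* and the 13 with 5′ *Hoxd*, 8 each were. Within 3′ *Hoxd*, 6 of 19 pairs (31.6%) were lower with RA and 13 (68.4%) with Eed loss, and 5 were shared. This block held 8 of the 20 pairs lower with Eed loss alone and 1 of the 13 lower with RA alone. Set against each other, D3 libraries lay above *Eed*-/- libraries without overlap in 42 of the 105 pairs, where 16.8% of all pairs did, and below them in 4, where 5.62% did. They lay above in 12 of 19 pairs within 3′ *Hoxd*, 7 of 10 within 5′ *Hoxd*, 15 of 47 between these, and 5 of 13 and 3 of 16 pairs of *Evx2* with 5′ and 3′ *Hoxd*. The counts were not tested, and pairs share fragments.

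The 4 classes of pairs differed in level and hardly in base composition. Median frequency in the parent states was 1.45 reads per 1000 for pairs lower in both states, 0.903 for those lower with Eed loss alone, 0.479 for those lower with RA alone and 0.237 for those lower in neither. The parent values also entered the classification, and weak pairs carry fewer reads. Median distances were 40.6, 38.8, 50.5 and 30.1 kb in the same order, and the mean GC content of the 2 fragments had medians of 49.7%, 49.7%, 50.1% and 49.7%.

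The sizes of the changes agreed only loosely between the states. Over the 105 pairs Pearson's r of the log2 changes was 0.21 and Spearman's rho 0.20, and 83 pairs had a lower mean in both opened states. Outside the stretch r was 0.05 over 2403 pairs with a mean above 0.05. In 20-kb bins, r was 0.51 and rho 0.41 over 12 bin pairs whose bins both lie wholly inside the stretch, and r was 0.17 over 545 elsewhere. The pairs share fragments, primers and libraries, so these values describe the matrices only. Replicates of a group also differ, which limits how closely such sizes can agree.

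**Figure D3:**
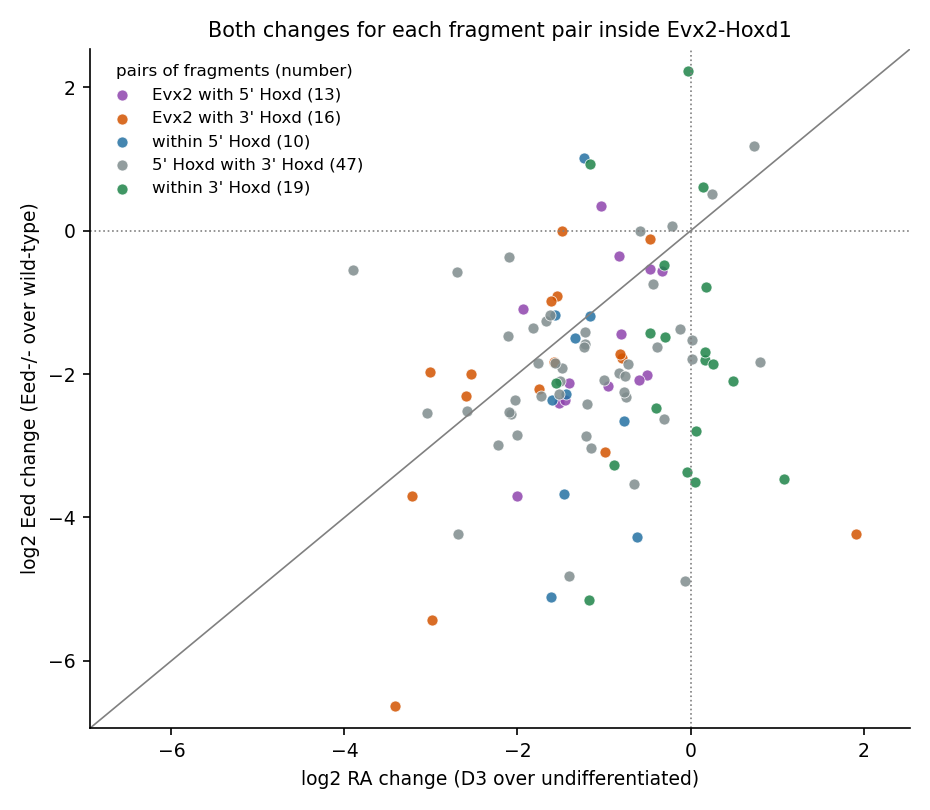
Log2 RA change (horizontal) and log2 Eed change (vertical) of the group means, after adding 0.02, for each of the 105 fragment pairs of *Evx2*–*HoxD*, coloured by block. The solid line marks equal changes. Of the points, 83 lie below 0 on both axes, and points within 3′ *Hoxd* have medians of -0.03 (RA) and -1.87 (Eed).

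Not all of the strongest contacts were lower in both states, and libraries of a group differed. The fragments of *Evx2* and *Hoxd13*, the most 5′ *Hoxd* gene, had the highest mean over the 8 libraries. They met at 5.71 and 12.7 reads per 1000 in undifferentiated and 5.36 and 5.23 in D3 libraries, and at 7.97 and 6.04 in wild-type and 1.57 and 3.55 in *Eed*-/- libraries. Both opened states lay below their parents, D3 by a narrow margin. Contacts of the *Evx2* and *Hoxd11* fragments came next, at 3.43 and 13.8, 1.75 and 7.94, 5.09 and 5.66, and 2.38 and 6.05 in the same order of groups. There the groups overlapped in both comparisons.

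*Hoxd11* made 4 of the 8 strongest contacts with fragments other than that of *Evx2*. With a *Hoxd4*/*Hoxd3* fragment 49.1 kb away (74565758 to 74572992) it had 3.72 and 5.97 in undifferentiated, 1.18 and 1.72 in D3, 3.82 and 4.07 in wild-type and 0.338 and 1.23 in *Eed*-/- libraries. With a *Hoxd3* fragment (74548286 to 74552569) it had 2.71 and 7.27, 1.77 and 2.50, 3.98 and 3.79, and 0.982 and 1.91. With the *Hoxd9* fragment it had 2.56 and 4.27, 1.24 and 1.44, 3.48 and 3.55, and 1.25 and 1.23. These 3 contacts were lower in both opened states without overlap. With the fragment between *Evx2* and *Hoxd13* (74498789 to 74505529) it had 3.58 and 7.12, 2.44 and 5.11, 5.58 and 5.67, and 1.46 and 1.30. That contact was lower in *Eed*-/- cells and overlapped its parent state in D3 cells.

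*Evx2* had the remaining strong contacts, both with *Hoxd3*. The fragment of *Evx2* and the *Hoxd3* fragment 83.1 kb away (74572993 to 74574606) met at 3.00 and 4.49 in undifferentiated, 0.727 and 0.528 in D3, 4.55 and 4.60 in wild-type and 0.924 and 1.33 in *Eed*-/- libraries. It was the only one of the 8 in which D3 lay below *Eed*-/- cells. With the short *Hoxd3* fragment shown whole above, *Evx2* had 6.16 and 3.42, 4.60 and 0.892, 2.98 and 5.43, and 1.99 and 0.452, lower in *Eed*-/- cells and overlapping in D3 cells. In all, 5 of the 8 were lower in both states and 2 in *Eed*-/- cells alone. Single pairs were too variable for a call. Of 2506 fragment pairs tested, limma called 0 in any of the 5 comparisons, with 87 at an unadjusted p under 0.05 for RA, 267 for Eed loss and 130 for the difference of the changes.

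Seen from single genes, all 9 measured genes of the stretch had lower contacts with it in *Eed*-/- than in wild-type libraries, and 8 had in D3 than in undifferentiated libraries. Of single pairs, 70.5% and 63.8% of the stretch were lower without overlap, against 10.1% and 9.15% of all 4251 pairs. The gene means reuse the pairs of the stretch, so these counts are no separate result. The exception with RA was *Hoxd11*, at 2.58 and 5.55 in undifferentiated and 1.51 and 2.59 in D3 libraries. Means in *Eed*-/- cells were 26.8% to 37.9% of wild-type, and means in D3 cells 33.6% to 59.6% of undifferentiated cells. The D3 percentage was the higher one for each of the 9 genes. *Hoxd4* and *Hoxd3* overlap and share 4 fragments, so their values are not separate.

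*Hoxd12* was lowest in D3 cells relative to the parent state, and *Hoxd1* was highest. *Hoxd12* fragments contacted the stretch at 0.395 and 0.679 in undifferentiated, 0.153 and 0.207 in D3, 0.452 and 0.441 in wild-type and 0.129 and 0.124 in *Eed*-/- libraries. *Hoxd1*, the most 3′ gene of the cluster, had 0.872 and 1.09, 0.596 and 0.572, 0.986 and 0.875, and 0.326 and 0.292. Its contacts with the other 3′ *Hoxd* fragments were 0.515 and 0.651 in undifferentiated and 0.651 and 0.547 in D3 libraries, which overlap. In wild-type they were 0.711 and 0.731 and in *Eed*-/- libraries 0.344 and 0.281, which do not. *Hoxd4* had the same pattern with these fragments, at 0.673 and 0.590, 0.511 and 0.610, 0.592 and 1.04, and 0.341 and 0.439. For *Hoxd1* with *Evx2* and 5′ *Hoxd*, D3 cells were at 46.1% and *Eed*-/- cells at 28.6% of the parent mean.

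Means were lower in both states at all distances inside the stretch. Pairs 10 to 20 kb apart kept 63.4% of the parent mean in D3 and 31.6% in *Eed*-/- cells. At 20 to 40 kb these percentages were 47.9 and 37.3, at 40 to 60 kb 47.3 and 27.2, at 60 to 80 kb 36.8 and 19.3, and at 80 to 110 kb 31.3 and 27.4. In D3 cells the percentage was lower in each class than in the one before. The log2 ratio of far (50 to 110 kb) to near (10 to 30 kb) contacts was -0.28 and -0.47 in undifferentiated, -0.89 and -1.53 in D3, -0.55 and -0.74 in wild-type and -0.76 and -1.42 in *Eed*-/- libraries. Both D3 and both *Eed*-/- libraries lay below their parents, and neither change passed the test (-0.84, limma adjusted p = 0.0900, and -0.45, limma adjusted p = 0.533), nor did their difference (-0.39, limma adjusted p = 0.759).

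Flank pairs of the same distances had no lower means. These in D3 cells were 109% to 132% of undifferentiated cells and in *Eed*-/- cells 122% to 133% of wild-type, on values that are shares of the run.

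**Figure D4:**
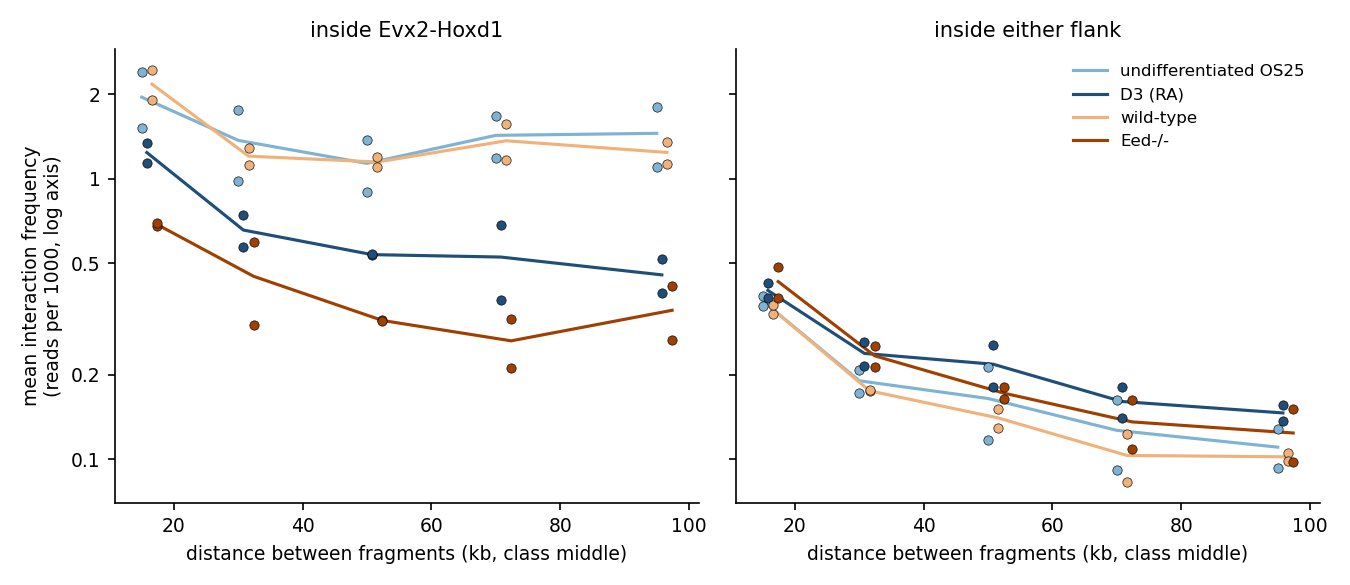
Mean interaction frequency in reads per 1000 (log axis) against the distance between fragments in kb, inside *Evx2*–*HoxD* (left) and inside either flank (right), with 1 point per library and lines through the group means. Inside the stretch the D3 line falls from 1.24 at 10 to 20 kb to 0.455 at 80 to 110 kb and the *Eed*-/- line from 0.688 to 0.340, whereas on the right the lines run close together.

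In 20-kb bins few contacts were called, and the calls depended on the bins and libraries used. Of 557 bin pairs, limma called 1 higher and 0 lower for RA (0.18% in all, 28 at an unadjusted p under 0.05), and 2 higher and 5 lower for Eed loss (1.26%, 67 at an unadjusted p under 0.05). For the difference of the changes 0 were called, and 31 had an unadjusted p under 0.05. Between D3 and *Eed*-/- cells 3 were called, all higher in D3 cells and all inside a flank (0.539%). The parent states differed in 1 bin pair (0.18%), the 5′ flank (from 74461352) with *Hoxd3* (from 74581352), at 0.117 and 0.134 in undifferentiated and 0 in both wild-type libraries (2.86, limma adjusted p = 0.0310). The 3 calls between D3 and *Eed*-/- cells became 0 without D3 replicate 1 or either *Eed*-/- library and 1 without D3 replicate 2, and the call between the parent states was lost without any 1 of the undifferentiated, D3 and wild-type libraries. Of the 5 bin pairs lower with Eed loss, 3 had a gene of the stretch in both bins, although the outer bins reach past its ends. They joined *Evx2* to *Hoxd3*, *Hoxd9* to *Hoxd4*/*Hoxd3* and *Hoxd9* to *Hoxd1*.

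In the bins of *Evx2* (from 74481352) and *Hoxd3* (from 74581352) frequencies were 0.555 and 1.14 in undifferentiated, 0.0696 and 0.137 in D3, 0.542 and 0.558 in wild-type and 0 and 0.0853 in *Eed*-/- libraries. The Eed change was -3.63 (standard error 0.78, limma adjusted p = 0.0436) and the RA change, not called, was -2.79. In the bins of *Hoxd9* (from 74521352) and *Hoxd4*/*Hoxd3* (from 74561352) they were 0.624 and 0.490, 0.251 and 0.109, 0.552 and 1.01, and 0.136 and 0.0722 in the same order of groups. The Eed change was -2.68 (standard error 0.56, limma adjusted p = 0.0436) and the RA change -1.61. D3 libraries were thus lower than their parents in both bin pairs too, without a call.

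The *Hoxd9* and *Hoxd1* bins (the latter from 74601352) had 0.295 and 0.237 in undifferentiated, 0.159 and 0.111 in D3, 0.326 and 0.486 in wild-type and 0.0492 and 0.0489 in *Eed*-/- libraries (Eed change -2.60, standard error 0.48, limma adjusted p = 0.0236; RA change -0.90). *Evx2* with the bin beyond *Hoxd1* (from 74621352) had 0.0820 and 0.0778, 0.0406 and 0.0276, 0.0860 and 0.133, and 0 and 0 (Eed change -2.67, standard error 0.48, limma adjusted p = 0.0236; RA change -0.89). The remaining calls lay in the flanks on 1 to 7 fragment pairs each. The RA call joined 2 bins in the 5′ flank, one of them over *Lnp* (from 74321352 and 74381352), by 1 fragment pair, at 0.360 and 0.276 in D3 libraries and 0 in the other 6. In bins of 12 kb 1 was called lower in each comparison. With only the 8 libraries in the fit, 0 bin pairs were called lower with Eed loss, and leaving out 1 library gave 0 to 4, with 0 without either wild-type library or without *Eed*-/- replicate 1, 1 without *Eed*-/- replicate 2 and 3 without either undifferentiated library. The higher RA call was lost without either undifferentiated library or D3 replicate 1, and both higher Eed calls were lost without any 1 of the wild-type and *Eed*-/- libraries.

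Contacts of 3′ *Hoxd* with the 3′ flank, the side on which the *Mtx2* gene and a gene desert lie, had a higher mean in D3 than in undifferentiated cells, with overlapping libraries, and no higher mean in *Eed*-/- cells. Values were 0.402 and 0.216 in undifferentiated, 0.499 and 0.361 in D3, 0.280 and 0.267 in wild-type and 0.227 and 0.261 in *Eed*-/- libraries. The RA change was 0.50 with a 95% interval from -0.19 to 1.18 (limma adjusted p = 0.531), the Eed change -0.16 (95% interval -0.84 to 0.53), and the difference 0.65 (95% interval -0.32 to 1.63, limma adjusted p = 0.533). D3 exceeded *Eed*-/- cells by 0.76 (unadjusted p = 0.0331, limma adjusted p = 0.174).

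One pair weighs on these means. A *Hoxd4*/*Hoxd3* fragment (74554816 to 74563667) and a fragment 287 kb away in the 3′ flank (74843589 to 74849816) had 74.5 and 21.5 reads per 1000 in undifferentiated, 77.0 and 29.4 in D3, 40.4 and 38.5 in wild-type and 26.9 and 23.0 in *Eed*-/- libraries. It was singled out after its values had been seen, and it took 21.3% to 48.6% of all reads between 3′ *Hoxd* and the 3′ flank. At this pair replicates of undifferentiated and of D3 cells differed by more than the means of these groups. Without it the means were 0.207 and 0.160 in undifferentiated, 0.299 and 0.285 in D3, 0.174 and 0.167 in wild-type and 0.157 and 0.201 in *Eed*-/- libraries, so that both D3 libraries lay above all others. The RA change was then 0.63 (limma adjusted p = 0.130) and the Eed change 0.05 (limma adjusted p = 0.923).

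By pairs, 124 of 382 (32.5%) between 3′ *Hoxd* and the 3′ flank were higher in D3 than in undifferentiated cells without overlap, where 14.1% of all pairs were. With Eed loss 47 (12.3%) were, against 8.56% of all pairs, and 17 pairs were higher in both. With RA, 21.0% of pairs inside the 3′ flank and 21.7% of those joining it to *Evx2* and 5′ *Hoxd* were higher too. Means inside the 3′ flank were 0.151 and 0.113 in undifferentiated and 0.197 and 0.158 in D3 libraries, without overlap. Scaled to equal flank contacts, the RA change of 3′ *Hoxd* with the 3′ flank was 0.19 (limma adjusted p = 0.726). By the distance of the partner, D3 values were higher without overlap in several classes. With fragments 50 to 100 kb beyond *Hoxd1*, 3′ *Hoxd* had 0.224 and 0.146 in undifferentiated and 0.376 and 0.316 in D3 libraries, and 0.162 and 0.142 in wild-type and 0.229 and 0.169 in *Eed*-/- libraries, higher without overlap in both. At 100 to 200 kb the values were 0.185 and 0.138, 0.330 and 0.355, 0.142 and 0.152, and 0.134 and 0.242. There D3 libraries lay above all others and *Eed*-/- libraries overlapped wild-type. At 200 to 310 kb, the class that holds the strong pair, they were 0.731 and 0.315, 0.792 and 0.442, 0.465 and 0.442, and 0.353 and 0.321, with overlap between undifferentiated and D3 libraries.

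5′ *Hoxd* showed a smaller difference of the same kind in D3 cells. At 50 to 100 kb it had 0.120 and 0.124 in undifferentiated and 0.208 and 0.199 in D3 libraries, against 0.137 and 0.173 in wild-type and 0.110 and 0.121 in *Eed*-/- libraries. D3 was above and *Eed*-/- below its parent without overlap. At 100 to 200 kb 5′ *Hoxd* had 0.148 and 0.123 in undifferentiated and 0.207 and 0.195 in D3 libraries, and at 200 to 310 kb 0.139 and 0.130 against 0.203 and 0.161, higher in D3 without overlap in both classes. In *Eed*-/- cells both of these classes overlapped wild-type, and no class of distance was tested. Of the 9 genes, 2 had more contacts with the 3′ flank in D3 than in undifferentiated cells without overlap, *Hoxd8* and *Hoxd1*. With 14.1% of all pairs higher, nothing is read from that count. *Hoxd8* had 0.112 and 0.111 in undifferentiated and 0.257 and 0.192 in D3 libraries, with 0.141 and 0.103 in wild-type and 0.115 and 0.148 in *Eed*-/- libraries. *Hoxd1* had 0.307 and 0.229, 0.356 and 0.416, 0.254 and 0.191, and 0.238 and 0.0921. No gene was higher in *Eed*-/- cells, and *Evx2*, *Hoxd12* and *Hoxd4* were lower without overlap. With Eed loss 8.56% of all pairs were higher and 10.1% lower, and nothing is read from these counts either.

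**Figure D5:**
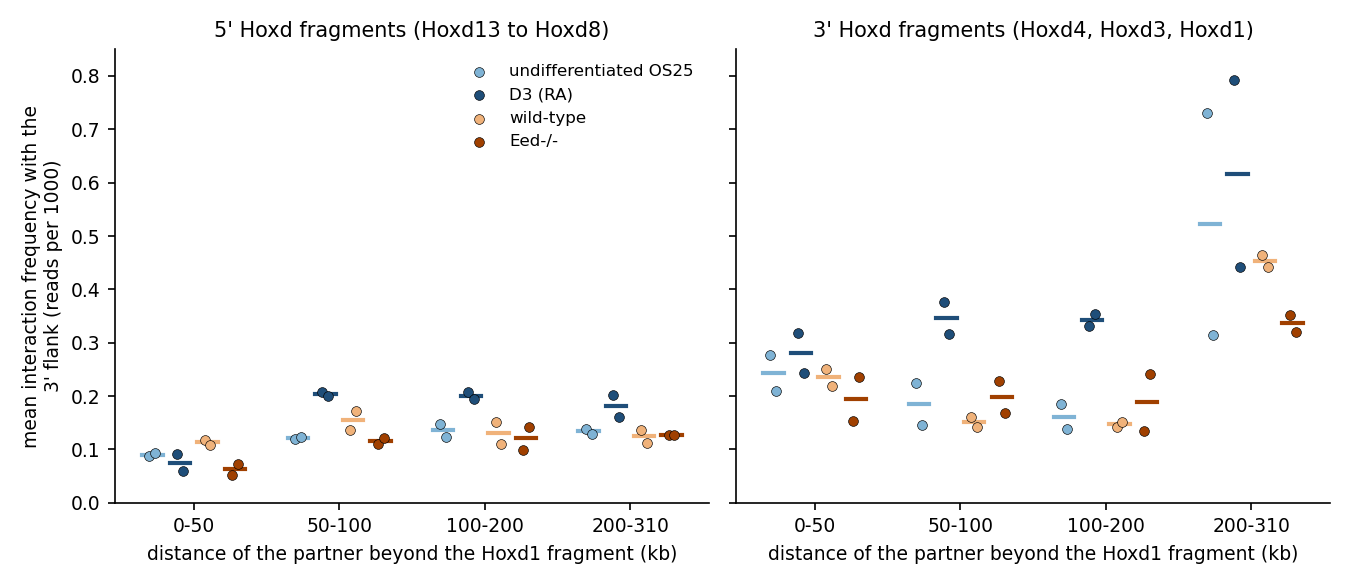
Mean interaction frequency in reads per 1000 of 5′ *Hoxd* (left) and 3′ *Hoxd* fragments (right) with fragments of the 3′ flank, by the distance of the partner beyond the *Hoxd1* fragment in kb, with 1 point per library and a bar at the mean of 2. D3 points stand above the other groups at 50 to 200 kb on both sides, and the spread at 200 to 310 kb on the right includes a strong pair of fragments that lie 287 kb from each other.

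Relative to contacts with 5′ *Hoxd*, contacts of 3′ *Hoxd* with the 3′ flank were higher in both states. The log2 ratio of the latter to the former was -1.24 and -2.83 in undifferentiated, -0.08 and -0.58 in D3, -2.04 and -2.31 in wild-type and -0.50 and -0.38 in *Eed*-/- libraries. All 4 opened libraries lay above their parents. This ratio changed by 1.70 with RA (standard error 0.43, limma adjusted p = 0.0160) and by 1.73 with Eed loss (standard error 0.43, limma adjusted p = 0.0154), with a difference of -0.03 whose 95% interval from -1.35 to 1.29 does not show that the changes are equal. Of the parts of this ratio, contacts with 5′ *Hoxd* passed the test in both states and contacts with the 3′ flank in neither. In *Eed*-/- cells both 3′ flank values lay below those of wild-type cells, so the higher ratio there came with lower values of both parts. For the 3′ flank this rests on the strong pair described above. Without that pair its means were 0.174 and 0.167 in wild-type and 0.157 and 0.201 in *Eed*-/- libraries, which overlap. The RA change lost its call without undifferentiated replicate 2 (0.90, limma adjusted p = 0.208) and without D3 replicate 1 (1.46, limma adjusted p = 0.129). The Eed change lost it without wild-type replicate 2 (1.60, limma adjusted p = 0.0919), without *Eed*-/- replicate 1 (1.79, limma adjusted p = 0.0605) and without *Eed*-/- replicate 2 (1.67, limma adjusted p = 0.0733).

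As shares of all contacts at least 10 kb apart, those inside *Evx2*–*HoxD* went from 16.8% and 30.6% in undifferentiated to 9.51% and 12.6% in D3 libraries, and from 22.7% and 24.7% in wild-type to 8.16% and 8.65% in *Eed*-/- libraries. Where the share was higher instead differed. Contacts of the stretch with the 3′ flank took 30.9% and 22.9% in undifferentiated and 37.3% and 33.7% in D3 libraries, without overlap, but 28.4% and 24.8% in wild-type and 27.4% and 26.4% in *Eed*-/- libraries. Contacts between the flanks, which skip the cluster, took 10.0% and 7.76% in undifferentiated and 8.01% and 8.29% in D3 libraries, against 9.01% and 7.80% in wild-type and 12.1% and 11.6% in *Eed*-/- libraries. Inside the 3′ flank the share was higher in both states, at 25.1% and 21.2%, 31.0% and 29.8%, 22.5% and 23.4%, and 31.2% and 34.9%. Shares of a library sum to the whole and are not independent, and they were not tested.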

How the data were processed

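5C libraries of 8 ESC samples were compared, and 6 further ESC libraries entered the fit only to estimate the spread. The deposited matrices hold signal values. The authors sequenced on an Ion Torrent and ran a 5C pipeline in Galaxy, and their signal for a contact is its reads per 1000 reads of that run. No aligner is named in the labels or methods used, and coordinates are those of mm9, per the labels. Total reads were taken from the smallest step between values.

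Means over pairs at least 10 kb apart, zeros included, were tested with limma 3.58.1 in R 4.3.3 on log2 values after adding 0.02, two-sided, with the Benjamini-Hochberg adjustment over all readouts and comparisons together. Bin pairs with a mean above 0.02 and fragment pairs with a mean above 0.05 over the ESC libraries were tested likewise, adjusted within each comparison. Fragments, blocks and tests were chosen with earlier results of these data known. The genes of the cluster, all blocks, called bin pairs and the 8 pairs with the highest mean were named by rule. Windows on probes were read by eye from the map of the region. Gene positions are those of GENCODE M1. The procedure was tested on simulated data.

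Replicate libraries were not copies: chi-square divided by its degrees of freedom was 87.8 to 214 between them. Python 3.11.15 was used with scipy 1.17.1, pandas 2.3.3, numpy 2.4.6 and, for plots, matplotlib 3.10.9. Alternatives covered scaling, pseudocount, distance, extreme pairs, primer efficiency, windows, bins, filters, the libraries in the fit, the replicate number as a block and the adjustment. Limb libraries and the *Usp22* region were left out, since the comparison is of *HoxD* in ESCs.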

Additional observations from a re-analysis of the deposited data

How the results depend on the processing

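Of 351 alternative values for the main results that kept all libraries, 304 held their direction and their side of the threshold, or their count within 1.5 times, 5 no longer passed, 8 newly passed, 5 turned in sign and 29 counts moved. The Eed change inside *Evx2*–*HoxD* passed under all 21 alternatives (-2.13 to -0.69), and so did that between 5′ and 3′ *Hoxd*. Where no reason is named, the cause was not tested. The RA change inside *Evx2*–*HoxD* passed when scaled to equal contacts at least 10 kb apart (-1.03), with a minimum distance of 20 kb (-1.12), with the mean of log2 values per pair (-1.13), without the strongest pair (-1.01), with primers scaled to equal means (-0.67) and with adjustment within each comparison (-0.99). The enrichment change with RA stayed at -1.51 and no longer passed when scaled to flank contacts (limma adjusted p = 0.0553). With primers scaled to equal means, calls were lost for the probe windows (RA -1.22, Eed -0.52) and the Eed change in enrichment (-0.70), and with no minimum distance for the Eed change within 3′ *Hoxd* (-0.56). The difference within 3′ *Hoxd* passed with the mean of log2 values (1.87) and without the strongest pair (1.34).

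Signs turned only for values that had not passed the threshold. With primers scaled, the difference of the changes was -0.0121 for *Evx2* with 5′ *Hoxd*, -0.20 for *Evx2* with 3′ *Hoxd*, -0.10 within 5′ *Hoxd*, -0.0133 between 5′ and 3′ *Hoxd*, -0.27 for enrichment, -0.70 for the probe windows and 0.44 for the ratio of 3′ flank to 5′ *Hoxd*. For the probe windows it was also -0.21 when scaled to contacts at least 10 kb apart and -0.0238 with a pseudocount of 0.1. For that ratio it was also 0.10 with no minimum distance, 0.0412 with the mean of log2 values and 0.00197 with windows by midpoint. The Eed change of 3′ *Hoxd* with the 3′ flank was 0.0592 when scaled to contacts at least 10 kb apart, 0.0529 without the strongest pair and 0.0713 with primers scaled. The difference of the parent states was -0.0872 when scaled to flank contacts, -0.0596 when scaled to contacts at least 10 kb apart, -0.0360 with no minimum distance, -0.00533 without the strongest pair and -0.0671 with windows by midpoint.

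Readouts called higher for RA numbered 0 with flank scaling and 2 each with the mean of log2 values and without the strongest pair, and those called lower 7 each with the mean of log2 values and with adjustment within each comparison. For Eed loss 0 were higher with flank scaling and 4 lower with primers scaled. For the difference of the changes 1 each was higher with the mean of log2 values and without the strongest pair. Of bin pairs, RA gave 0 higher and 1 lower in bins of 12 kb, 0 higher in bins of 40 kb, and 2 higher and 1 lower with a pseudocount of 0.1. Eed loss gave 0 higher and 1 lower in bins of 12 kb, 9 lower with a filter of 0.05, 1 higher with a pseudocount of 0.005, 11 lower each with a pseudocount of 0.1 and with flank scaling, and 0 higher and 0 lower with only the 8 libraries in the fit. The difference gave 2 higher with a filter of 0.05, 3 higher with a pseudocount of 0.005 and 1 lower in bins of 40 kb. With a pseudocount of 0.1 Eed loss gave 2 higher and 2 lower fragment pairs.

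The replicate number as a block gave 0 higher and 0 lower bin pairs for Eed loss. With this block the RA change inside *Evx2*–*HoxD* was -0.99 (limma adjusted p = 0.0774). No source used here says what same-numbered libraries share. Over 557 bin pairs their deviations correlated at 0.29 between undifferentiated and D3 libraries, the groups of the RA comparison. For the other pairs of groups the values were -0.01 to 0.12. A shared batch of undifferentiated and D3 libraries was not tested.

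Leaving out 1 library at a time gave ranges of -1.33 to -0.65 for the RA change and -0.33 to 0.35 for the parent difference inside *Evx2*–*HoxD*, and of -1.49 to -0.80 for the RA change between 5′ and 3′ *Hoxd*. The probe windows ranged from -2.09 to -1.45 (RA), -2.20 to -1.39 (Eed) and -0.38 to 0.43 (difference). Enrichment with RA ranged from -2.07 to -0.94, and contacts within 3′ *Hoxd* from -1.89 to -1.17 (Eed) and 0.93 to 1.66 (difference). Differences ranged from -0.0347 to 1.00 for *Evx2* with 5′ *Hoxd* and from -0.83 to 0.77 for the ratio of 3′ flank to 5′ *Hoxd*. Readouts called higher ranged from 0 to 1 for RA, for Eed loss and for the difference, and those called lower for RA from 0 to 6. Bin pairs called higher ranged from 0 to 1 for RA and 0 to 2 for Eed loss, and those called lower for Eed loss from 0 to 4.

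Each group holds 2 libraries, which limits every test, and pairs without a read in a library are known only to lie below the frequency of 3 reads.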
